A study of Rattus norvegicus with 4 samples.

Results

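The genes of vesicle traffic and the secretory pathway were examined in rat myometrium, the muscle layer of the uterus. They were taken by gene symbol from the platform annotation of an Affymetrix rat array: the Rab and Arf GTPases, the syntaxins, Vamp, Snap and Gosr proteins, the synaptotagmins, the COPI coat, the Sec and Vps proteins, the subunits of the AP adaptor complexes, and Gorasp1 and Gorasp2. This gave 138 of the 8740 probe sets compared, for 96 genes. The rule works on letters, so it also takes Rab11fip5 and Rab3ip, partners of Rab proteins, Snap91, a clathrin assembly protein, and Sec14l3, a lipid-binding protein. Each is counted below in the class its letters give, so Rab11fip5 and Rab3ip stand among the Rab GTPases. Of the last pair of symbols Gorasp1 alone was found.

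Rats aged 60 days whose ovaries had been removed a week earlier received estradiol benzoate, a slowly released ester of estradiol, under the skin at 10 µg per kg, or its vehicle. The 4 groups were estradiol benzoate at 24 h, vehicle control at 24 h, estradiol benzoate at 6 h and vehicle control at 6 h. Each group was measured on 1 array carrying RNA pooled from 6 animals, so no replicate error can be given and no difference within a time has a test. All 7 smooth muscle markers on the array, among them Acta2 and Myh11, were above the signal floor on every array, their summed signal lying between 61611 and 95653. Fewer cells of a type and less RNA per cell cannot be told apart in such whole-tissue pools.

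The estrogen-induced uterine genes Igf1, S100g, Hsd11b2 and Pgr were all 4 at least 2-fold higher with estradiol at 24 h and all 4 at least 2-fold lower on the array labelled estradiol at 6 h. Directions at 6 h are therefore given for the arrays as labelled. Whether the 6 h arrays were exchanged was not tested, and an exchange would turn the sign of every 6 h difference. A communication error was recorded during washing for the 24 h control and for no other array. Both arrays of a time were scanned on the same day, the 2 times on different days.

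Secreted and membrane proteins enter the endoplasmic reticulum through the Sec61 channel, leave it in vesicles coated by COPII, and are retrieved from the Golgi in vesicles coated by COPI, which Arf GTPases recruit. Rab GTPases mark each membrane and bring vesicles to it, and SNAREs, that is the syntaxins, Vamp and Snap proteins, fuse the membranes, with synaptotagmins as calcium sensors in regulated secretion. AP complexes select cargo for clathrin and endosomal vesicles, and Vps proteins sort endosomes and lysosomes.

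Promoters are shown for members acting at or between the endoplasmic reticulum and the Golgi, whose 24 h values are given below. A link of promoter letters to those values was not tested. RefSeq promoters of the GRCr8 build were found for 83 of the 96 genes by gene identifier. Measured against the gene's start, 19339 of 33469 promoters ran from 250 bases before to 50 after, the most common window. In the promoter of Arf4, at chr16:1903186-1903485 on the + strand, capitals mark the core of the unfolded protein response element, TGACGTGG, a motif of genes induced by stress in the endoplasmic reticulum. In those of Sec61b, at chr5:66568934-66569233 on the + strand, and Sec31a, at chr14:9518487-9518786 on the + strand, capitals mark the GC box, GGGCGG.
Arf4: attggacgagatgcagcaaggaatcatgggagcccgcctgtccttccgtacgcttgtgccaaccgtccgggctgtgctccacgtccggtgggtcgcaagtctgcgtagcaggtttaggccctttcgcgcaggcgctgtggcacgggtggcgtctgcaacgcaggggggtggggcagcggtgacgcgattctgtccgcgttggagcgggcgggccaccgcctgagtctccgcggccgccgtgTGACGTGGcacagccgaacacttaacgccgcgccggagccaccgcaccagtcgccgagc
Sec61b: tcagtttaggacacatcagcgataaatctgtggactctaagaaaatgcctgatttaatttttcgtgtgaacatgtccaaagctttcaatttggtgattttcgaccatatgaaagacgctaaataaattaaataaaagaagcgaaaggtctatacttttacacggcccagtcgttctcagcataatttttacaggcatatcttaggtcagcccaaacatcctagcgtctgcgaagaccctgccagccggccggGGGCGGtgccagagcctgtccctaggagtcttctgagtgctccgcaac
Sec31a: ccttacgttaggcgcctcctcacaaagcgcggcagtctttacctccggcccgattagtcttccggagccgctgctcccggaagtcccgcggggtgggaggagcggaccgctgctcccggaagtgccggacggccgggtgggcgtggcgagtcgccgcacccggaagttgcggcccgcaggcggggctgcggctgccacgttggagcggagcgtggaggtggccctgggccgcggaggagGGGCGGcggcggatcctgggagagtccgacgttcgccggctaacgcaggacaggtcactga

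The core TGACGTGG, searched on both strands, was in 5 of the 83 member promoters (6.02%), against 25 of 4192 promoters of genes named on the array (0.596%) and 199 of all 33469 promoters of the table (0.595%). The 5 genes, Arf1, Arf4, Copb1, Copb2 and Stx5, all act between the endoplasmic reticulum and the Golgi. Their matches are shown in capitals, written TGACGTGG or, on the other strand, CCACGTCA, with the bases around them. The windows lie at chr10:44514001-44514040 on the - strand for Arf1, chr1:177872823-177872862 on the - strand for Copb1, chr8:108040661-108040700 on the + strand for Copb2 and chr1:215066497-215066536 on the + strand for Stx5, whose promoter holds 2 matches.
Arf1: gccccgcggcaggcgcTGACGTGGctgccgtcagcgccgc
Copb1: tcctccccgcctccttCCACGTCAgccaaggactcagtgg
Copb2: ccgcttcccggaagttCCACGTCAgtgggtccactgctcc
Stx5: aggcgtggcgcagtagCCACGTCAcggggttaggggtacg

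In all, 8 motifs were searched, and the core was singled out after the search. The palindromic estrogen response element, the endoplasmic reticulum stress element and its shorter form were each in 0 member promoters and in 0.0269%, 0.0657% and 0.0508% of all promoters. The cyclic AMP response element TGACGTCA, whose first letters are those of the core, was in 3.61% of member promoters, against 2.43% of promoters of genes named on the array and 1.83% of all. In the same order the shares were 9.64%, 8.42% and 6.42% for the E-box CACGTG, 38.6%, 37.8% and 37.5% for CCAAT, and 77.1%, 55.7% and 33.1% for GGGCGG. A match is a string of letters and not a measured site.

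Each value below is a MAS5 signal on a linear scale, and each difference is on the log2 scale after signals had been raised to a floor, the 40th percentile of each array, between 89.5 and 108. A probe set counted as higher or lower at a difference of 1 or more, which is 2-fold, if its brighter signal was above the floor. A fold against a signal at the floor is a lower bound. Of the 138 probe sets 109, for 80 genes, were above the floor on at least 1 array and are called measured; 89 were above it on all 4 arrays, 15 on 2 or 3, and 5 on 1. A probe set measured through 1 array had to be brightest there. Signals of different probe sets are not comparable levels.

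With estradiol at 24 h the Sec61 channel subunits, a coat protein of exit from the endoplasmic reticulum, and the Golgi proteins Gorasp1 and Gosr2 were among the members past 2-fold on the higher side. Of the 109 measured probe sets 14 (12.8%) were at least 2-fold higher, against 8.3% of all 6157 measured probe sets. Another 5 (4.59%) were at least 2-fold lower, against 8.36%. The median log2 difference was -0.10 over the members and -0.17 over all probe sets. By class it was highest in the 1 Golgi stacking probe set at 1.58 and lowest in the synaptotagmins at -0.52, with -0.33 for Vps proteins, -0.21 for Rab GTPases and -0.17 for SNAREs. Of 8 measured synaptotagmin probe sets only 2 were above the floor on both 24 h arrays. A probe set at the floor on both takes -0.17, the log2 ratio of their floors. Over probe sets above the floor on both, the median was -0.10 for members and -0.16 for all. Against the control at 6 h, a comparison chosen after the data were seen that rests on a label the estrogen-induced genes go against, 6 were higher and 3 lower. Only 4 of the 14 (Gorasp1, Sec61a1, Sec61b and a probe set of Ap2b1) and 1 of the 5 (Rab3b) were also called in that comparison. Shares over all probe sets were not counted there, so the loss of calls cannot be called particular to the members.

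**Figure D1:**
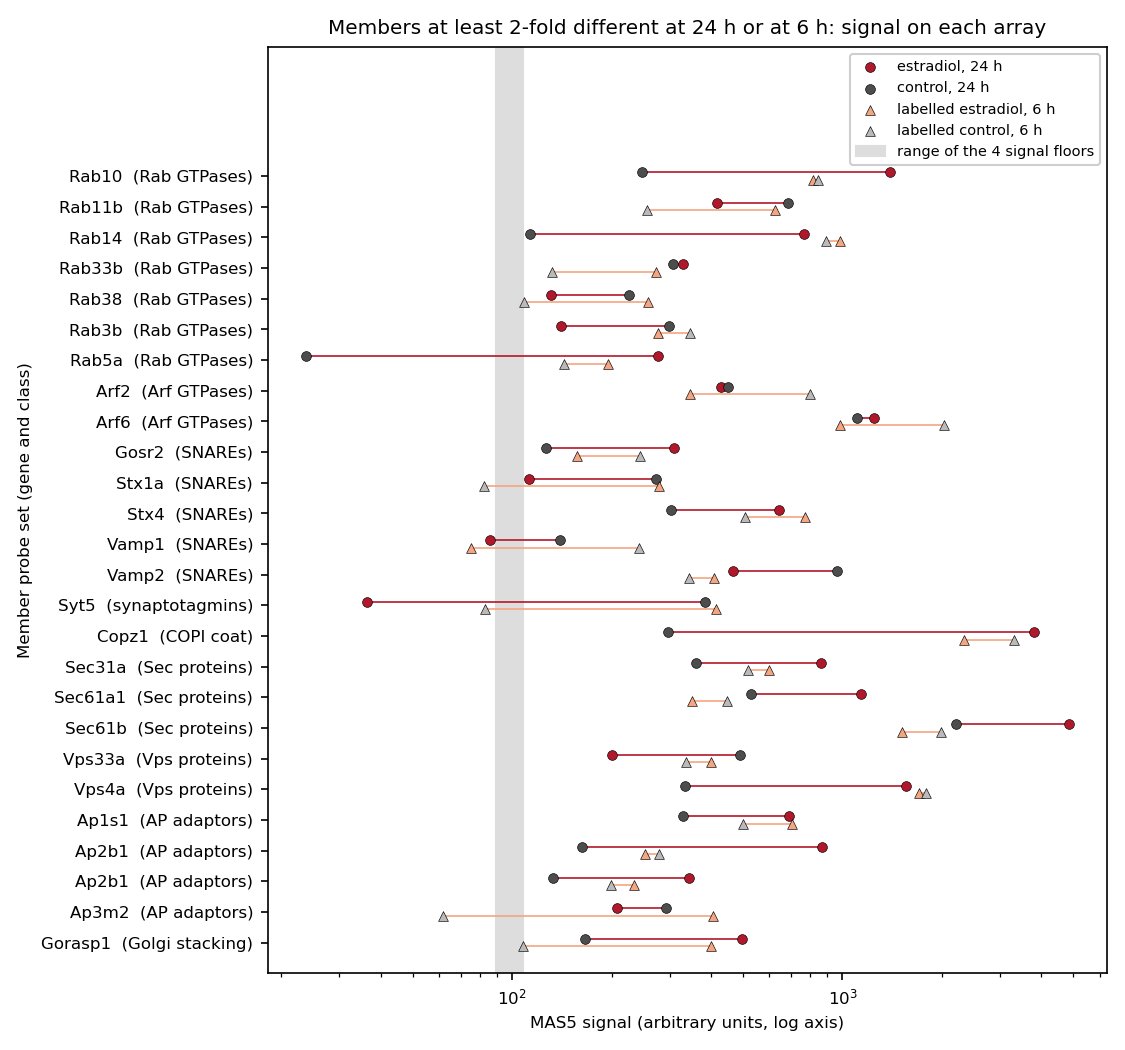
MAS5 signal (log axis) of each member probe set that differed at least 2-fold at 24 h or at 6 h, by class, with a line joining the 2 arrays of a time. The grey band spans the 4 floors. Copz1, Rab5a, Rab10, Rab14 and Vps4a have the 24 h control far left of the other 3 arrays. Sec61a1, Sec61b and a probe set of Ap2b1 have the 24 h estradiol array far right.

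Both subunits of the Sec61 channel on the array stood highest on the 24 h estradiol array. Sec61a1, which forms the pore, read 1140 with estradiol against 528 in the control at 24 h, and 350 on the array labelled estradiol and 448 on that labelled control at 6 h. Sec61b, its small partner, read 4841 with estradiol against 2210 in the control at 24 h, and 1515 and 1983 in the same order at 6 h. The 24 h differences were 1.11 and 1.13, a 2.16-fold and a 2.19-fold higher signal, and each exceeded 2-fold against every other array. Only 1 more member did so, a probe set of Ap2b1, making 3 of 109 (2.75%) against 1.59% of all measured probe sets.

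Sec31a, of the outer COPII coat, was higher on 2 of its 3 probe sets, 1 of them past 2-fold. That probe set read 862 with estradiol against 361 in the control at 24 h, and 598 and 517 on the arrays labelled estradiol and control at 6 h, a 24 h difference of 1.26. The brightest of the 3 read 3668 with estradiol against 1896 in the control, a difference of 0.95, just under the rule, and the remaining one differed by -0.05. Sec11a, a catalytic subunit of the signal peptidase, differed by -0.20 and -0.10 on its 2 probe sets, and Sec62, a partner of the channel, by -0.42. Of 8 measured Sec probe sets 3 were higher and 0 lower at 24 h, where 8.3% and 8.36% of all probe sets were. Their median difference was 0.45 at 24 h and -0.03 at 6 h, against -0.17 and -0.07 over all probe sets.

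Arf4, a GTPase of the early Golgi, read 7248 with estradiol against 3824 in the control at 24 h, and 3506 with the estradiol label and 4945 with the control label at 6 h. Its difference of 0.92 stayed under 2-fold, and it was 1.06 with arrays scaled to a common median and 0.75 with quantile normalization. Of 6 measured Arf probe sets 5 were higher by some amount at 24 h, 83.3% against 39.4% of all probe sets above the floor on both arrays. Arf1, which recruits the COPI coat, differed by 0.18, Arf5 by 0.22, Arf3 by 0.14, Arf6 by 0.16 and Arf2 by -0.07.

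All 5 COPI probe sets were likewise higher at 24 h, though 1 alone passed 2-fold. Copb1 and Copb2, β subunits of the coat, differed by 0.25 and by 0.12 and 0.30, and Copz2, a ζ subunit, by 0.74 with signals of 1148 and 686. Copz1, its relative, read 3786 with estradiol against 297 in the control at 24 h, and 2328 on the array labelled estradiol and 3310 on that labelled control at 6 h. That is a difference of 3.67, or 12.8-fold, but the 24 h control stands far under all 3 other arrays. The 5 genes with the promoter core TGACGTGG, of the Arf, COPI and SNARE classes, had 24 h differences on their brightest probe sets of 0.18 for Arf1, 0.92 for Arf4, 0.25 for Copb1, 0.12 for Copb2 and 0.57 for Stx5. The other probe sets of Stx5, a SNARE of the Golgi, differed by -0.09 and -0.31, and 0 of the 5 genes passed 2-fold.

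Gorasp1, the protein GRASP65 that holds Golgi stacks together, was the 1 member past 2-fold on the higher side at both times by the labels, against 0.52% of all measured probe sets. With the sign at 6 h turned, 0 members would be higher at both times, against 1.51% of all. It read 497 with estradiol against 166 in the control at 24 h, and 399 with the estradiol label and 108 with the control label at 6 h, where 108 is just under the floor. The difference was 1.58 at 24 h and at least 1.88 at 6 h, and with a floor at the 60th percentile 0.99 and 0.63. Both arrays labelled estradiol are thus higher than both controls. In limma's fit of both times, with treatment and time as terms and 1 residual degree of freedom, Gorasp1 was the 1 measured member with an unadjusted p under 0.05, at 0.00721, and its adjusted p was 0.999. That fit called 0 of the 109 members and 0 of 6157 probe sets (0%) after Benjamini-Hochberg adjustment, with 104 probe sets under 0.05 before it. The treatment term averages both times as labelled, so these p-values rest on the doubted 6 h labels.

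Gosr2, a SNARE of the Golgi also named membrin, read 309 with estradiol against 127 in the control at 24 h, and 157 and 244 on the arrays labelled estradiol and control at 6 h. The 24 h difference of 1.29 is larger than that from the 6 h control, 0.34. Its relative Gosr1 differed by -0.43. Stx4, a SNARE of the plasma membrane, read 643 with estradiol against 304 in the control at 24 h, and 769 and 506 on the arrays labelled estradiol and control at 6 h. Its 24 h difference was 1.08, or 0.97 with a pseudocount of 50 in place of the floor, and its highest signal was on the array labelled estradiol at 6 h.

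Keratins and other epithelial markers were higher on the same 24 h estradiol array, 5 of the 6 on the array by at least 2-fold. Their summed signal was 3605 with estradiol against 1158 in the control at 24 h, and 652 and 1773 on the arrays labelled estradiol and control at 6 h. The part of epithelium in the differences of the secretory genes was not tested.

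**Figure D2:**
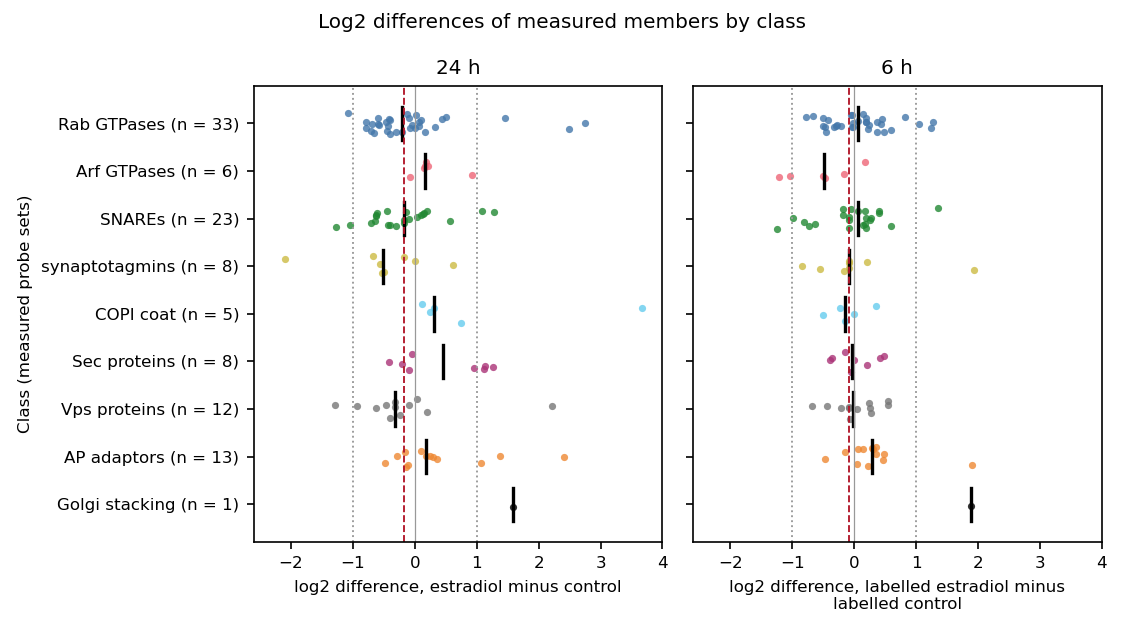
Log2 differences of the measured member probe sets by class at 24 h (left) and 6 h (right); each point is a probe set, black bars are class medians, dotted lines mark 2-fold and the red dashed line is the median of all measured probe sets. At 24 h the COPI points all lie right of 0, 4 of 8 Sec points lie near or past 2-fold, and most Rab and Vps points lie left of 0.

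Among the Rab GTPases 9 of 30 probe sets above the floor on both 24 h arrays were higher with estradiol by any amount, 30.0% against 39.4% of all probe sets, and their median difference was -0.26. Those past 2-fold were 3 higher and 1 lower of 33 measured, near the 8.3% and below the 8.36% of all probe sets, and 2 of the 3 were low on the 24 h control alone. Rab14, which acts between the Golgi and endosomes, read 765 with estradiol against 114 in the control at 24 h, and 984 and 888 on the arrays labelled estradiol and control at 6 h. Rab10, of transport to the plasma membrane, read 1390 with estradiol against 248 in the control on 1 probe set, and 813 and 844 at 6 h in the same order. The other, brighter Rab10 probe set read 2488 with estradiol against 2884 in the control at 24 h, a difference of -0.21. So the 2 probe sets of Rab10 go opposite ways, by 2.49 and -0.21.

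Rab5a, of early endosomes, also had probe sets that differed in opposite directions at 24 h. One was at least 2.74-fold higher, reading 277 with estradiol against 23.8, below the floor, in the control. On it the arrays labelled estradiol and control at 6 h read 196 and 143, so the 24 h control was the lowest array. With signals raised to the floor the gap of that control to the next array was 0.51, under 2-fold. The other probe set read 225 with estradiol against 339 in the control at 24 h. Rab3b, of regulated secretion, was the Rab member past 2-fold on the lower side, with 140 for estradiol and 298 for the control at 24 h, and 276 and 346 on the arrays labelled estradiol and control at 6 h. It was 2.12-fold lower, and its log2 difference was -0.95 with arrays scaled to a common median. Rab genes of general routes had 24 h differences of -0.05 for Rab1a (endoplasmic reticulum to Golgi), 0.44 for Rab6a (within the Golgi), -0.43 for Rab7a (late endosomes) and -0.66 for Rab5b. All 3 probe sets of Rab11b, of recycling endosomes, differed by -0.58 to -0.71, while the 3 of Rab11a differed by 0.07 to 0.51.

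Of the 10 Vps probe sets above the floor on both 24 h arrays 2 were higher by any amount, where 39.4% of all probe sets were, and the median difference was -0.36. Vps33a, of the tethering complexes of late endosomes, read 201 with estradiol against 491 in the control at 24 h, and 401 and 337 on the arrays labelled estradiol and control at 6 h. That is a difference of -1.29, against -0.24 on its other measured probe set. Vps52, which tethers vesicles to the Golgi, differed by -0.94, and Vps29 and Vps26a, of the retromer that recycles receptors, by 0.03 and -0.32. Vps4a, the ATPase that takes membrane-cutting ESCRT filaments apart, ran the other way, with 1554 for estradiol and 335 for the control at 24 h, and 1699 and 1788 at 6 h in the same order.

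Subunits of the AP adaptors were mixed at 24 h, with 3 of 13 measured probe sets higher and 0 lower, against 8.3% and 8.36% of all probe sets. Ap2b1, the β subunit of the endocytic adaptor, gave 2 of the 3. The first read 866 with estradiol against 163 in the control at 24 h, and 252 and 278 on the arrays labelled estradiol and control at 6 h, a difference of 2.41. The second read 343 with estradiol against 133 in the control, a difference of 1.37, but the brightest of the gene read 909 with estradiol against 979 in the control. Ap1s1, a small subunit of the adaptor at the trans-Golgi, read 687 with estradiol against 328 in the control at 24 h, and 702 and 501 on the arrays labelled estradiol and control at 6 h, a 24 h difference of 1.06, or 0.96 with the pseudocount of 50. Ap2m1, the cargo-binding subunit, stayed within 3295 to 3883 on all 4 arrays.

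The array of the 24 h control stood apart in several of these. Copz1, Rab14, Vps4a and 1 probe set of Rab10 were at least 2-fold lower on it than on each of the other 3 arrays, 4 of 109 (3.67%) against 3.02% of all measured probe sets. For Copz1, Rab14 and Vps4a the gap was at least 4-fold while the other 3 arrays lay within 2-fold of each other, 3 of 109 (2.75%) against 0.617%. Their log2 gaps to the lowest other array were 2.97, 2.75 and 2.21, and that of Rab10 was 1.72. With estradiol at 24 h Copz1, Rab14 and Vps4a differed from the control at 6 h by 0.19, -0.22 and -0.20. Differences under 2-fold there are required by the way these 3 were picked, so they add no further evidence. Leaving out the calls of these 4, a choice made after the data were seen, 10 of 109 members (9.17%) were higher at 24 h. The 109 still hold the 4. Over all 6157 measured probe sets 511 (8.3%) were higher at 24 h, and the same choice would take out 186 of these, 3.02% of all. The 9.17% is therefore not to be set against 8.3%. The part of the recorded communication error in these signals was not tested.

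**Figure D3:**
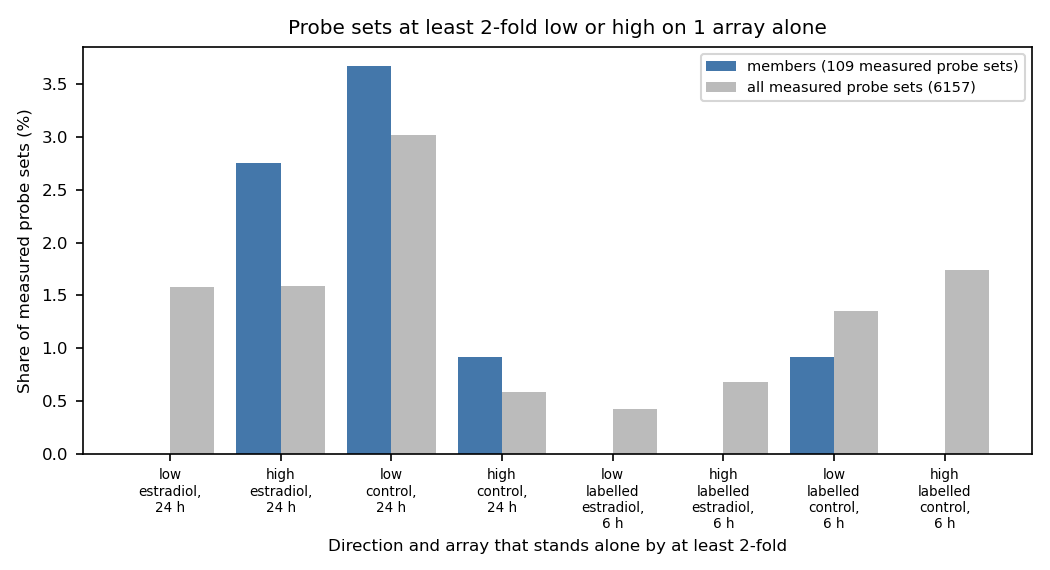
Share of measured probe sets at least 2-fold low or high on 1 array alone, for the 109 measured members (blue) and all 6157 measured probe sets (grey). The members' largest share, 3.67%, is low on the 24 h control, where all probe sets also have their largest share, 3.02%.

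Vamp2, a SNARE of secretory vesicles, was high on the 24 h control alone on 1 probe set, 1 of 109 (0.917%) against 0.585% of all measured probe sets, on which it read 465 with estradiol against 964 in the control at 24 h, and 409 and 342 on the arrays labelled estradiol and control at 6 h. The difference was -1.05, and -0.91 with arrays scaled to a common median. Its other probe set read 808 with estradiol against 1247 in the control at 24 h. Vamp3, its widely expressed relative, differed by -0.40 at 24 h and 0.07 at 6 h. Rab33b, a Golgi Rab, was low on the array labelled control at 6 h alone, 1 of 109 against 1.35% of all, with 273 for the estradiol label and 132 for the control label, and 329 with estradiol against 307 in the control at 24 h. In the remaining cases 0 members stood alone, against 0.422% of all measured probe sets low and 0.682% high with the estradiol label at 6 h, 1.58% low with estradiol at 24 h and 1.74% high with the control label at 6 h.

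Of the members of calcium-triggered secretion, Syt5 and 1 probe set of Stx1a differed past 2-fold in opposite directions at the 2 times. Syt5, a calcium sensor of secretory vesicles, read 36.3 with estradiol against 384 in the control at 24 h, and 415 with the estradiol label and 82.8 with the control label at 6 h. The fold was at least 4.29 lower at 24 h and at least 3.83 higher at 6 h. Stx1a, the plasma membrane SNARE of nerve endings, read 112 with estradiol against 272 in the control at 24 h, and 278 with the estradiol label and 82.4 with the control label at 6 h, on 1 probe set. Its differences were -1.28 at 24 h and at least 1.36 at 6 h, but its other, brighter probe set read 386 and 336 at 24 h and 397 and 299 at 6 h in the same orders, 0.20 and 0.41. These 2 of 109 (1.83%) compare with 1.93% of all measured probe sets. The opposite order, higher at 24 h and lower at 6 h, held for 0 members against 1.51% of all, and lower at both times for 0 against 0.13%.

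The other synaptotagmins gave few values above the floor. Syt3 was above it on all 4 arrays, reading 204 with estradiol against 289 in the control at 24 h and 311 and 271 on the arrays labelled estradiol and control at 6 h. Of 8 measured synaptotagmin probe sets 3 were above the floor on 1 array and 4 on 2 or 3. Nerve and neuroendocrine markers, 10 of 14 above the floor, summed to a signal of 1274 for estradiol and 2053 for the control at 24 h, and to 1420 and 2331 on the arrays labelled estradiol and control at 6 h. Of these 10, 0 passed 2-fold at 24 h and 2 were lower with the estradiol label at 6 h, and Syn2, Nefm, Chgb and Scg2 were below the floor on every array. The part of nerve in these differences was not tested. Leukocyte markers, 5 measured, summed to 4689 for estradiol and 3710 for the control at 24 h, and to 3822 and 5104 on the arrays labelled estradiol and control at 6 h, with 2 higher and 2 lower at 24 h and 1 lower at 6 h.

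The SD of the members' log2 differences was 0.57 at 6 h and 0.85 at 24 h, against 0.70 and 0.79 over all measured probe sets. With the estradiol label 7 of 109 (6.42%) were higher by the rule, against 6.94% of all measured probe sets, and 3 (2.75%) at least 2-fold lower, against 5.38%. The median difference was -0.0044 over the members and -0.07 over all probe sets. Higher were Gorasp1, Syt5, Stx1a, Rab33b and probe sets of Ap3m2, Rab11b and Rab38, and lower were Arf2, Arf6 and Vamp1. Against the control at 24 h 1 of the 7, Gorasp1, and 0 of the 3 were also called, and the share over all probe sets was not counted.

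**Figure D4:**
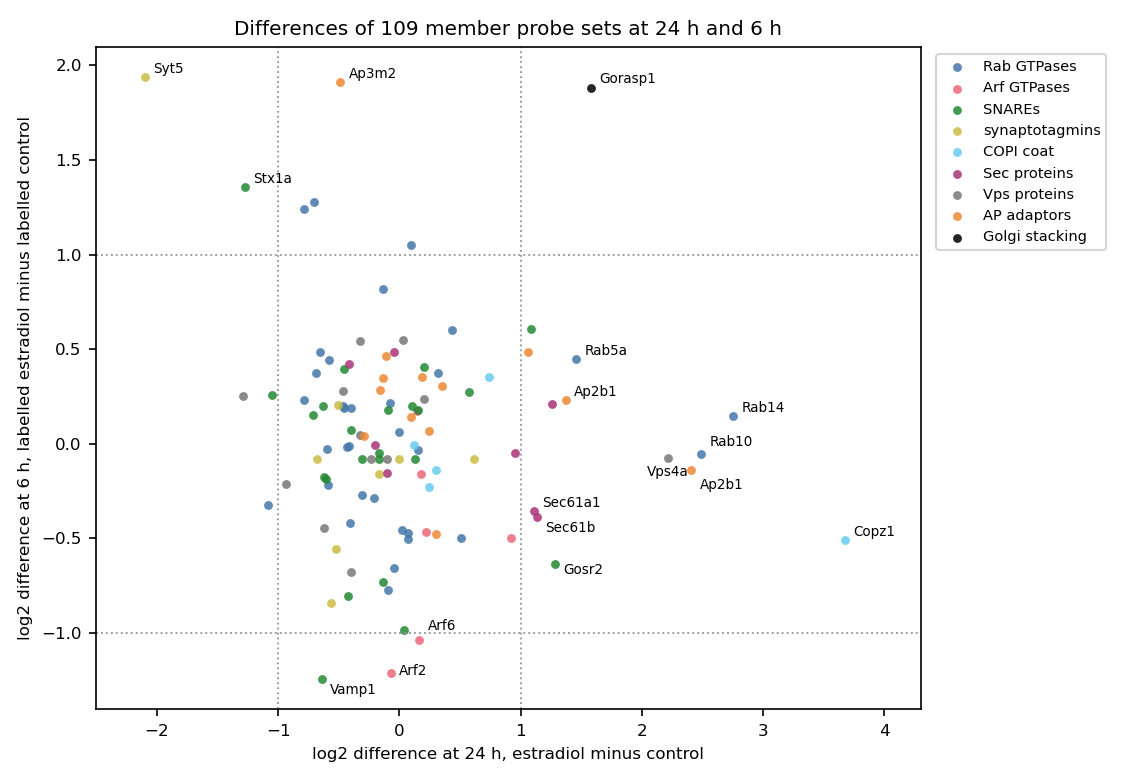
Log2 difference at 6 h against that at 24 h for the 109 measured member probe sets, coloured by class, with dotted lines at 2-fold. Gorasp1 lies past 2-fold on the higher side at both times and Syt5 and Stx1a past it in opposite directions, while Sec61a1 and Sec61b are past 2-fold at 24 h alone.

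Arf6, which acts at the plasma membrane and in endocytosis, read 984 with the estradiol label and 2022 with the control label at 6 h, and 1241 with estradiol against 1107 in the control at 24 h. Arf2 read 345 with the estradiol label and 799 with the control label, and 428 with estradiol against 450 in the control at 24 h. The difference at 6 h was -1.04 for Arf6 and -1.21 for Arf2, and in both genes the 6 h control is the highest of the 4 arrays. Vamp1, a vesicle SNARE, read 162 with the estradiol label and 320 with the control label on its brighter probe set, a difference of -0.98, and passed the rule on its dimmer one at -1.24 or beyond. Of the 6 Arf probe sets 5 were lower with the estradiol label and 1, Arf3, higher, with a class median of -0.48, and 49.0% of all probe sets were higher. With the 6 h sign turned, 5 would be higher.

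Rab38, of lysosome-related organelles, read 258 with the estradiol label and 109 with the control label at 6 h, and 131 with estradiol against 226 in the control at 24 h. A probe set of Rab11b read 624 with the estradiol label and 257 with the control label, a difference of 1.28, while the other 2 differed by 0.38 and 0.44. Ap3m2, the neuronal form of a subunit of the lysosomal adaptor, was at least 3.76-fold higher on 1 probe set, with 407 for the estradiol label against 61.7 for the control label. Its other probe set differed by 0.29. In AP adaptors 10 of 12 probe sets above the floor on both 6 h arrays were higher with the estradiol label by any amount, 83.3% against 49.0% of all probe sets.

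Between the controls, which both received vehicle, 9 of 109 members (8.26%) were at least 2-fold higher at 24 h than at 6 h and 4 (3.67%) lower, against 8.43% and 9.45% of all measured probe sets. Both Ap3m2 probe sets and Copz2 were among those higher, and the 4 lower ones were Copz1, Rab10, Rab14 and Vps4a. Of the 6 pairs of arrays the 2 at 24 h had the highest SD of log2 differences over the measured members, 0.85, and the 2 at 6 h the lowest, 0.57. Over all measured probe sets the highest was between the controls, 0.82, and the lowest, 0.66, between the 24 h control and the 6 h array with the estradiol label.

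Other genes of the pathway, taken from a list of 87 symbols of which 50 were on the array and 45 measured, numbered 3 higher and 2 lower at 24 h and 1 higher and 1 lower at 6 h. Over all probe sets these shares were 8.3% and 8.36% at 24 h and 6.94% and 5.38% at 6 h, so the list had no larger share in either direction. The units differ, since the list counts the brightest probe set of each gene. With 1 mean value per gene, 269 of 3622 genes were higher and 237 lower at 24 h, and 204 and 148 at 6 h. Scamp2, a carrier protein of recycling vesicles, read 1407 with estradiol against 61.3 in the control at 24 h, and 697 and 766 on the arrays labelled estradiol and control at 6 h. Trappc1, of the complex that tethers vesicles to the Golgi, read 663 with estradiol against 181 in the control at 24 h, and 879 and 773 at 6 h in the same order. In both the 24 h control is the low array, as in Copz1. Ykt6, a Golgi SNARE, was at least 2-fold higher, with 203 against 15.4 in the 24 h control and signals below the floor on both 6 h arrays.

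Past 2-fold at 6 h were Dnm1, which cuts vesicles from the membrane, at 1.16 and Rabggtb, which attaches lipid anchors to Rab proteins, at -1.32. Several genes of the list under 2-fold at 24 h were picked after their values were seen. Ssr4 and Ssr3, of the complex that assists the channel, differed by 0.94 and 0.88, and Tmed2 and Tmed10, cargo receptors of the coats, by 0.73 and 0.51. Other early secretory genes of the list were flat or lower, with 0.01 for Uso1, a Golgi tether, -0.02 for Bet1l, a Golgi SNARE, and -0.85 and -0.74 for the golgins Golga2 and Golgb1. Ssr4 read 3401 with estradiol against 1772 in the control at 24 h, and 1570 and 1816 on the arrays labelled estradiol and control at 6 h. On the lower side at 24 h, Rabep1, a Rab5 effector, differed by -1.05 and Amph, an endocytic protein of nerve endings, by -1.70 or beyond. Igf2r, which carries lysosomal enzymes, differed by -0.93 and Lamp1, of the lysosome membrane, by -0.64.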

How the data were processed

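RNA of rat myometrium was measured on 4 Affymetrix arrays, each carrying a pool of 6 animals per the labels. The values are probe set intensities the authors deposited, made with MAS5 per the submitters' processing notes. Its version is not given in the sources used here. Every column already had a mean of 500 after trimming 2% at each end. Per the file headers, instrument records gave chip lot, wash and scan day.

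Of 8799 probe sets, 59 Affymetrix controls were dropped. Genes were named only through the 7018 probe sets that GEO's platform annotation pairs with 1 symbol (308 have several and 1473 none). Signals below the 40th percentile of an array were set to it before log2 (Python 3.11.15, pandas 2.3.3). limma 3.58.1 (lmFit, eBayes) fitted treatment and time over 6157 measured probe sets, after a check on simulated data. That check used noise of SD 0.3 and effects equal at both times, so it does not give the power of the fit on these arrays. Named genes are all members past the 2-fold rule, those low on the 24 h control alone and the brightest of each class; others were added after their values were seen, to illustrate a class or the 5 promoter matches. Members and lists were chosen with earlier results of these data known. Other scalings, floors, folds, comparators and ways to treat probe sets were tried. The number of arrays limits the precision.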

Additional observations from a re-analysis of the deposited data

Results flagged for a closer look

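Syt5 and 1 probe set of Stx1a differed past 2-fold in opposite directions at the 2 times, and that contrast was not tested because each group has 1 array. For Syt5 the log2 difference of estradiol minus control was -2.10 at 24 h and, on the arrays as labelled, 1.94 at 6 h, both bounds set by a floor. For Stx1a it was -1.28 at 24 h and 1.36 at 6 h, and its brighter probe set gave 0.20 and 0.41. With a floor at the 60th percentile both genes were under 2-fold at both times.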

How the results depend on the processing

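The 14 members higher, 5 lower at 24 h, 7 higher, 3 lower at 6 h and 4 low on the 24 h control alone depended on the rule. Lower at 24 h were 3 with a common median, quantile normalization, a pseudocount of 50 or no _x_at and _s_at probe sets, 10 and 2 with floors at the 20th and 60th percentiles, and 1 with 1 value per gene. At 6 h, lower were 7 with the 20th percentile floor, 5 with the pseudocount and 0 against the mean of both controls; higher were 1 with the 60th percentile floor and 3 with 1 value per gene. With a 1.5-fold rule 20 were lower at 24 h, 11 lower at 6 h and 8 low on the 24 h control alone. Counts over all measured probe sets moved too. Lower at 24 h were 515 of 6157 by the main rule and 1394 at 1.5-fold. They were 368 with a common median, 389 with quantile normalization and 470 with the pseudocount. Floors at the 20th and 60th percentiles gave 1045 of 7821 and 254 of 4275, and 1 value per gene 237 of 3622. At 6 h 331 of 6157 were lower and 427 higher by the main rule. Lower there were 774 of 7821 with the 20th percentile floor, 390 with the pseudocount and 908 at 1.5-fold. Fewer than 331 were lower at 6 h against the mean of both controls. Higher at 6 h were 240 of 4275 with the 60th percentile floor and 204 of 3622 with 1 value per gene. For the 1.5-fold count low on the 24 h control alone, no count over all probe sets is given. With a 3-fold rule 5 members were higher and 1 lower at 24 h, and 3 higher and 0 lower at 6 h. By that rule 229 of all 6157 measured probe sets were higher and 121 lower at 24 h, and 136 and 99 at 6 h. Against the control of the other time, a comparator added with the data in view, 6 members were higher and 3 lower at 24 h. Of these 4 and 1 were among the 14 and 5, and shares over all probe sets were not counted. Both medians moved by less than 0.585 in every setting run. limma called 0 members in all 11 settings. Of 760 values of named probe sets under planned settings 48 lost the 2-fold call, 7 gained it, and 4 gained it with the sign turned. The brightest probe sets of Ap2b1 and Rab10 differed by -0.11 and -0.21 at 24 h. The mean of all probe sets of each gene gave 1.22 and 1.14. Against both controls at 6 h Copz1 went from -0.51 to 1.23 and Vps4a from -0.07 to 1.14. Vamp1 at 6 h became 0.043 with the 60th percentile floor, the log2 ratio of the raised floors. No paired analysis was possible because the labels give no replicate numbers; time is a term of the limma fit.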

Other observations

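The 16 member genes below the floor on every array were Ap1s3, Rab2a, Rab3c, Rab4a, Rab15, Rab29, Sec14l3, Sec22a, Snap29, Snap91, Stx3, Syt1, Syt4, Syt7, Syt12 and Syt17. Of these, Snap91, Rab3c, Syt1 and Syt4 are known from nerve cells, and Rab2a and Sec22a from the endoplasmic reticulum and Golgi. Snap25, a SNARE of nerve endings with 4 probe sets, was above the floor on all 4 arrays for 1 of them, with 118 for estradiol and 130 for the control at 24 h, and 140 and 232 on the arrays labelled estradiol and control at 6 h. Among 22 member genes with several measured probe sets, those of 7 genes did not share a 2-fold call at 24 h and those of 4 at 6 h.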
